A study of Mus musculus with 2 samples.

Results

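Barcodes that carry transcripts of circulating classical monocytes or of their granule-protein-making progenitors were examined in single-cell libraries of mouse liver. A barcode was a member if it had at least 8 unique molecular identifiers (UMIs, counted molecules) summed over F13a1, Vcan, Chil3, Ly6c2, Mpo, Prtn3 and Elane. It also had to have fewer than 3 UMIs over the nonclassical monocyte genes Treml4, Ear2, Cd300e and Adgre4, fewer than 30 over the neutrophil genes S100a8 and S100a9, and none of Cd79a or Cd3e. Of 3035 barcodes kept for at least 500 UMIs, at least 250 genes and at most 20% mitochondrial UMIs, 50 were members, 16 of 1149 in the PCB126 library and 34 of 1886 in the Control library. The members were thus chosen by the UMIs of these genes, whose levels are given as a description.

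Each library was made from the liver of 1 C57/BL6 mouse. The PCB126 mouse received PCB126, a dioxin-like polychlorinated biphenyl and ligand of the aryl hydrocarbon receptor (AHR), by gavage at 20 µg/kg/day, and the Control mouse received the peanut oil vehicle, although its treatment label reads untreated. Both were exposed for 5 weeks and fasted for 12 hours, and both carry an age label of postnatal day 21. The protocol describes a single gavage while the dose is given per day. Cells were released with enzymes, hepatocytes were spun and strained away, red cells were lysed, and 3′ droplet libraries were prepared for a target of 6000 cells each. With 1 library per treatment no difference between treatments could be tested. Intervals are exact 95% intervals and cover counting error only.

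Classical monocytes descend from granulocyte-monocyte progenitors of the bone marrow, which make neutrophil elastase, myeloperoxidase, proteinase 3 and cathepsin G for storage in primary (azurophil) granules. As the cells mature they stop transcribing these genes, gain Ly6C on the surface and leave the marrow through the chemokine receptor CCR2. In the liver they can enter inflamed tissue and become macrophages or antigen-presenting cells.

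The members were divided by counts. The granule barcodes (G) had at least 8 UMIs over Mpo, Prtn3 and Elane, the Ly6c2 barcodes (L) had at least 3 Ly6c2 UMIs among the others, and the remaining barcodes (R) had neither. A barcode with at least 10 UMIs over Siglech, Ccr9, Jchain and Mzb1 was set apart (P). The PCB126 library held 1 G, 9 L and 6 R barcodes, and the Control library held 7 G, 21 L, 5 R and 1 P. Within each kind and library barcodes are numbered by falling UMI count.

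The promoters of 3 granule genes are shown because their transcripts mark the G barcodes. Prtn3 (proteinase 3) and Elane (neutrophil elastase) lie beside each other on chromosome 10, 3073 bases apart, in GENCODE M21 on GRCm38. Ctsg (cathepsin G) lies on chromosome 14, and Mpo (myeloperoxidase) at chr11:87793581-87804413. The RefSeq windows of 250 bases before the start (GRCm38.p6) are printed up to the first base within them that GENCODE annotates as an exon, 5′ to 3′ on the gene's strand. GENCODE starts the Prtn3 gene upstream of its window, at base 79874476, so that window lies inside the annotated gene. That left 197 bases for Prtn3 (chr10:79879417-79879613, plus strand), 185 for Elane (chr10:79886062-79886246, plus strand) and all 250 for Ctsg (chr14:56102575-56102824, minus strand). Only 47 were left for Mpo, which is not shown. Capitals mark GAGGAA, a core sequence bound by PU.1, the transcription factor encoded by Spi1.
Prtn3: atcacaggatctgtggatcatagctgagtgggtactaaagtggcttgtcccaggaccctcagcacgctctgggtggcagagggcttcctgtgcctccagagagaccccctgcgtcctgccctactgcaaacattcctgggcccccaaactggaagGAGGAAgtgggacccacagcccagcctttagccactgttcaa
Elane: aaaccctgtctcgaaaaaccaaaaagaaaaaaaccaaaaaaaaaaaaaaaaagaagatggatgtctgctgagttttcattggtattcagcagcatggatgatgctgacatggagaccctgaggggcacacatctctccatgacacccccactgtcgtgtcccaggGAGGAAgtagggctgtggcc
Ctsg: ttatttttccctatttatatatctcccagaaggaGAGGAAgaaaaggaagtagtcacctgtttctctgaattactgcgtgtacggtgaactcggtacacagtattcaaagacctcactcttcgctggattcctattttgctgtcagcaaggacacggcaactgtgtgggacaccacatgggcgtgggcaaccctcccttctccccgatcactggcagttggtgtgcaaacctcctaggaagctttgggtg

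Searched on both strands of the whole 250-base windows, GAGGAA occurred 1 time each for Prtn3, Elane and Ctsg and 2 times for Mpo, while 23.3% of the 32851 RefSeq windows held it. The Myb motif AACNG occurred in all 4 whole windows, for Elane only past the printed bases, and in 74.2% of all windows. The C/EBP motif TTNNGNAA occurred in none of the 4 and in 36.8% of all windows. These matches describe letters only.

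The members made up 1.39% (0.798 to 2.25%) of kept barcodes in the PCB126 library and 1.80% (1.25 to 2.51%) in the Control library, a ratio of shares of 0.772 (0.398 to 1.44). The interval of that ratio includes equal shares. With a marker sum of at least 5 the PCB126 share lay above the Control share. The ratio was 0.402 when barcodes of up to 50% mitochondrial UMIs were kept, and 0.359 when Ly6c2 was left out of the marker sum, which left members at 0.609% of kept PCB126 barcodes and 1.70% of kept Control barcodes. G barcodes were 0.0870% (0.00220 to 0.484%) of kept PCB126 barcodes and 0.371% (0.149 to 0.763%) of kept Control barcodes. The ratio of the G shares was 0.234 (0.00520 to 1.83), an interval that includes equal shares.

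PCB126 members carried between 3101 and 58154 UMIs, with a median of 10934.5, and a median mitochondrial share of 10.6%. Control members carried between 4936 and 71488 UMIs, with a median of 11582, and a median mitochondrial share of 4.95%. The marker sum of 8 to 10, just inside the limit, was found in 4 PCB126 members and in 0 Control members. Just outside it, with a sum of 5 to 7, were 11 PCB126 barcodes and 3 Control barcodes. The libraries shared 3 of their deposited barcodes and no member. Scrublet, run per library with the top scores marked at 0.8% per 1000 barcodes, marked 0 PCB126 members and 1 Control member (Control L15), and no barcode was removed as a doublet.

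**Figure D1:**
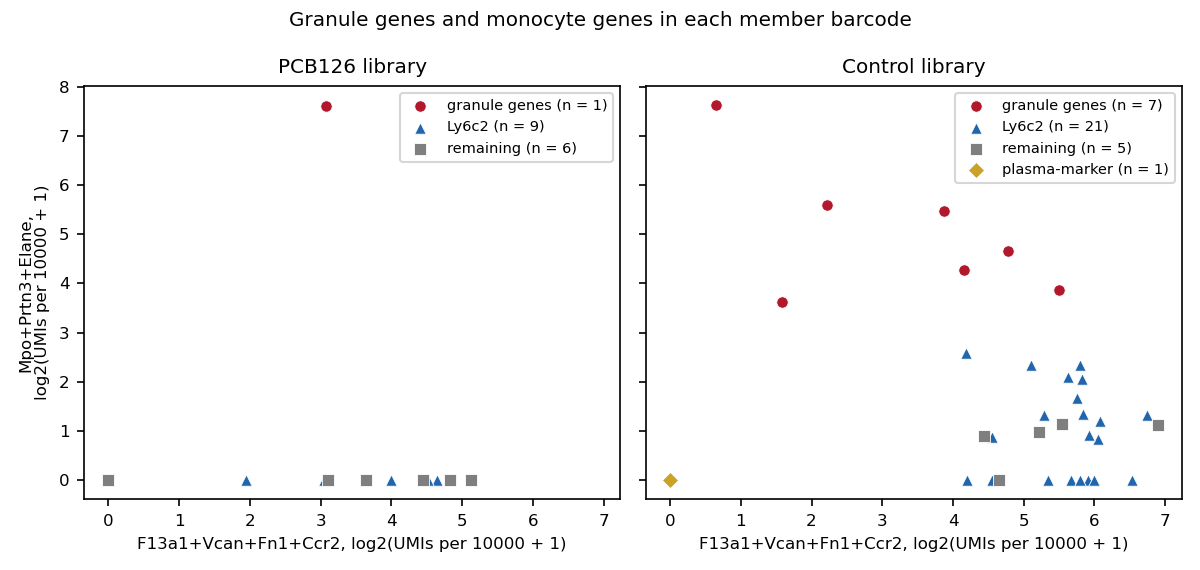
Each point is 1 member barcode, with the summed UMIs of F13a1, Vcan, Fn1 and Ccr2 on the x axis and of Mpo, Prtn3 and Elane on the y axis, both as log2(UMIs per 10000 + 1), for the PCB126 library (left) and the Control library (right). Control G7 has the highest granule and lowest monocyte value of the 7 Control granule barcodes and Control G2 is low in both, while 15 of the 16 PCB126 members lie at 0 on the y axis.

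The G barcodes, set apart by their granule UMIs, are described one by one. PCB126 G1, the only one of its library and its deepest member, held 447 UMIs of Elane, 357 of Mpo, 328 of Prtn3 and 144 of Ctsg in 58154 UMIs. It also held 145 UMIs of Ly6c2 and 40 of F13a1, the coagulation factor XIII A chain of monocytes, with only 3 of Ccr2 and 14 of Lyz2, the lysozyme of mature myeloid cells. This barcode therefore joined high granule counts with the surface marker of classical monocytes, and no other PCB126 member had a UMI of Mpo, Prtn3 or Elane.

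The 7 Control G barcodes differed among themselves. Control G1 (71488 UMIs) held 172 UMIs of Mpo, 156 of Prtn3, 138 of Ctsg and 12 of Elane, and Control G7 (17687 UMIs) held 147 of Mpo, 110 of Prtn3, 96 of Ctsg and 92 of Elane. Both had few UMIs of Lyz2, at 17 in Control G1 and 2 in Control G7, beside 10 and 13 of Ly6c2. Other monocyte genes differed between them: Ccr2 had 23 UMIs in Control G1 and 0 in Control G7, Ms4a6c had 24 and 1, and Csf1r had 8 and 0. Myb, a transcription factor of blood progenitors, had 34 UMIs in Control G1 and 21 in Control G7, and Cdk6, a kinase that drives progenitor cycling, had 43 and 20. Ms4a3, which marks granulocyte-monocyte progenitors, had 12 and 21 UMIs in them, beside 35 in PCB126 G1.

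Control G2 (44790 UMIs) had 50 UMIs of Prtn3 and 22 of Ctsg, but 1 of Mpo and 0 of Elane. It carried the progenitor surface genes Cd34 (18 UMIs), Flt3 (11 UMIs) and Kit (6 UMIs), and no F13a1, Vcan or Chil3. Cd34, Flt3 and Kit also had 16, 8 and 11 UMIs in Control G1 and 18, 1 and 12 in PCB126 G1. Control G2 met the marker sum through Prtn3, with 7 UMIs of Ly6c2.

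Control G3 to G6 combined Prtn3 with some monocyte genes. Prtn3 had 48, 79, 31 and 28 UMIs in them in that order, Ly6c2 had 36, 47, 40 and 60, and F13a1 had 18, 21, 31 and 22. Lyz2 had 19, 71, 212 and 159 UMIs, so it was higher than in Control G1, G2 and G7 in every one of the 4. Other monocyte genes were low or absent in part of them: Vcan had 0, 0, 1 and 9 UMIs and Fn1 had 0, 5, 25 and 16. Mpo had at most 10, and Elane had 0, 18, 0 and 21. Control G6 was also the only G barcode with more than 1 UMI of Chil3, a chitinase-like protein of maturing myeloid cells, at 75. Control G5 held 292 UMIs of Hbb-bs, a beta-globin, against 2 to 25 in the other Control G barcodes, and whether it held free or captured red-cell RNA was not tested.

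Prtn3 was not limited to the G barcodes in the Control library. It had at least 1 UMI in 13 of 21 Control L barcodes (61.9%, 38.4 to 81.9%) and in 4 of 5 Control R barcodes, at 1 to 5 UMIs each. After thinning every barcode to 1000 UMIs the share in Control L was 19.0% (5.45 to 41.9%). In endothelial-gene barcodes of the Control library, which should lack the gene, it was 2 of 308 (0.649%, 0.0787 to 2.33%) before thinning and 0 of 306 after it, with a median of 6561 UMIs against 11086 in Control L. Mpo had 1 UMI and Elane none over the 21 Control L barcodes. In the PCB126 library none of the 9 L barcodes had a UMI of Prtn3, with an exact upper bound of 33.6% on that share. Prtn3 is a gene of the rule, so these shares are a description.

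The Control L barcodes carried the classical monocyte set. Lyz2 ranged from 65 to 464 UMIs with a median of 193, Ccr2 from 2 to 48 with a median of 15, and Fn1 (fibronectin) from 3 to 60 with a median of 17, each in 21 of 21 barcodes. F13a1 was detected in 20 of 21, Vcan (the proteoglycan versican) in 19 of 21, and Chil3 in 18 of 21 with a highest count of 132. Camp, Ltf and Ngp, genes of the secondary granules of maturing neutrophils, had 0, 1 and 1 UMIs over all 34 Control members and 0 over the 16 PCB126 members, while S100a8, which the rule limits, had 99 UMIs over the 21 Control L barcodes. The 5 Control R barcodes had 0 or 1 UMI of Ly6c2, 12 to 21 of Ccr2 and 125 to 246 of Lyz2. Fn1 was at 0 in Control R1, and F13a1 and Vcan were at 0 in Control R3.

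Control P1 was led by immunoglobulin transcripts, with 1537 UMIs of Igkc, 680 of Ighm and 236 of Jchain in 5000 UMIs. It met the rule through 12 UMIs of Ly6c2 and had 0 UMIs of Lyz2, Ccr2, Fn1 and F13a1, so it goes against the label.

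**Figure D2:**
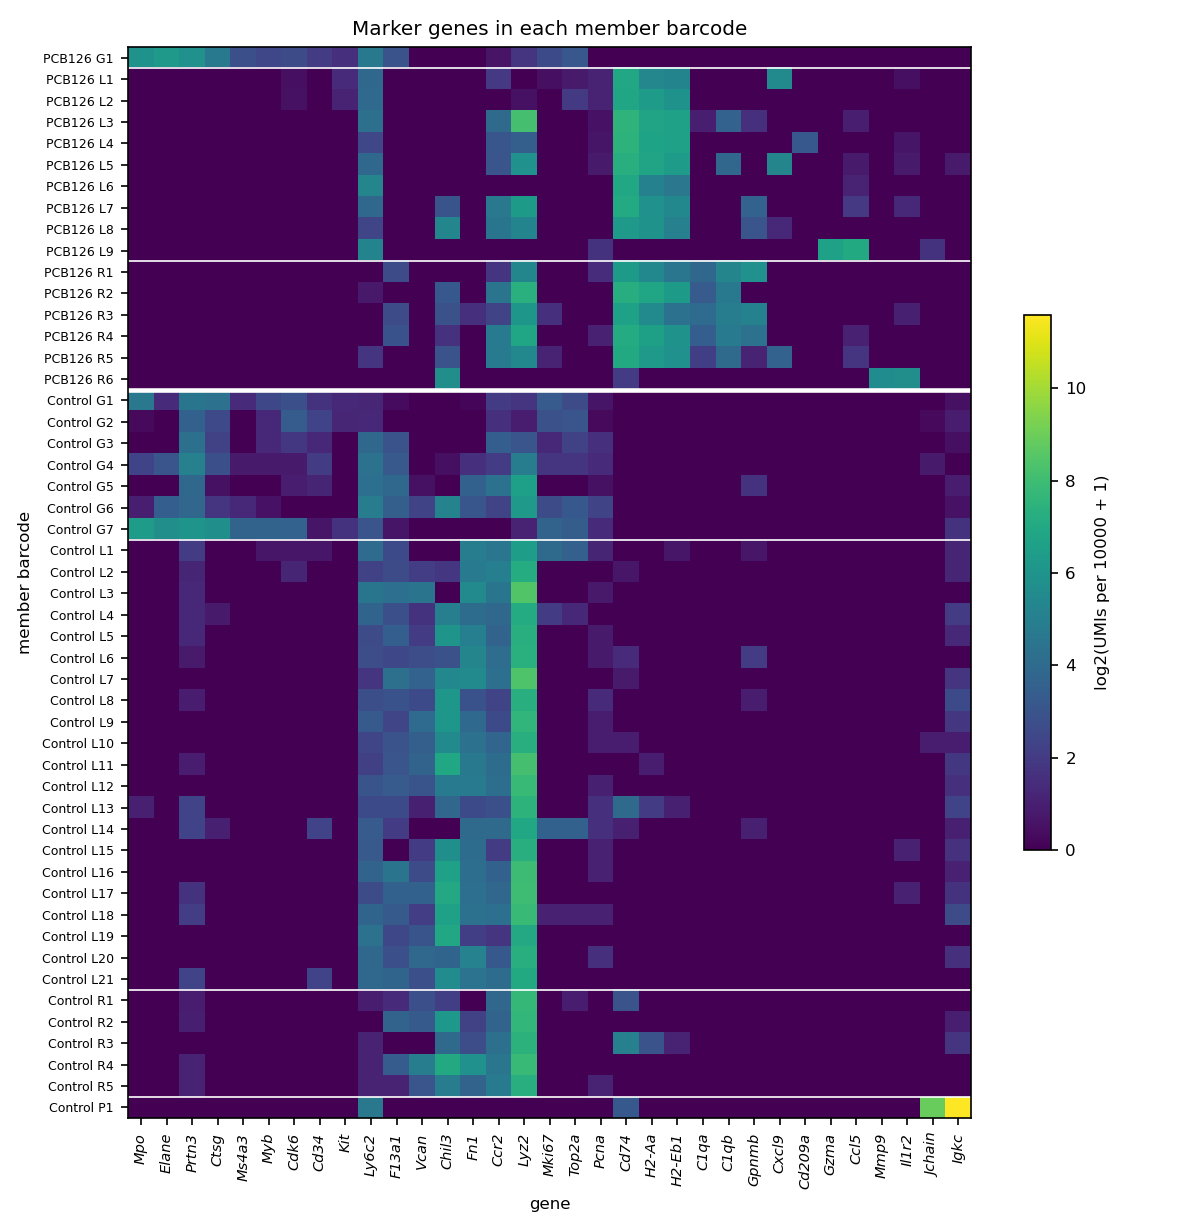
Rows are the 50 member barcodes, PCB126 above and Control below the thick white line, in the order granule (G), Ly6c2 (L), remaining (R) and plasma-marker (P), and columns are genes, coloured by log2(UMIs per 10000 + 1). All 21 Control L barcodes have Fn1, Ccr2 and Lyz2 and 18 have Chil3, whereas 13 of the 15 PCB126 L and R barcodes share Cd74, H2-Aa and H2-Eb1.

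PCB126 members other than G1 carried part of that set. Lyz2 was found in 11 of these 15, at 1 to 598 UMIs, and Ccr2 in 11, at 4 to 31 UMIs, and 10 had both. In Control members other than G barcodes 26 of 27 had both. The other genes of the set were rarer in PCB126 members. Vcan was at 0 UMIs in all 16 PCB126 members, against 212 UMIs in 25 of 34 Control members, which makes it at least 34.1-fold lower in CPM (UMIs per 1000000 UMIs of the summed barcodes) with 3 counts over the group as the floor. Fn1 had 2 UMIs in 1 PCB126 member, against 638 UMIs in 29 Control members. F13a1 had 60 UMIs in PCB126 members, 40 of them in G1, and 304 in Control members, and Chil3 was found in 7 of 16 PCB126 members and 25 of 34 Control members. Ly6c2, by contrast, had 341 UMIs in PCB126 members and 435 in Control members, and Ly6c1, a close copy of it, had 1 and 0. Of all 91-base windows of the Ly6c2 transcript, 4.98% also occur in Ly6c1, and 8.29% of those in its last 500 bases. Most PCB126 members thus met the rule through Ly6c2 or a few UMIs of Chil3 or F13a1, and they are described here by their leading genes.

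PCB126 L1 to L8 had high MHC class II transcripts, the genes that present antigen to helper T cells. Summed over 7 genes, these ranged from 226 to 538 UMIs per 10000 in the 8 barcodes, and PCB126 L9 had 4.53. Over the whole subgroup the level was 36566 CPM in PCB126 L barcodes and 291 CPM in Control L barcodes, whose highest barcode had 30.2 UMIs per 10000. The ranges did not overlap apart from L9.

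These 8 barcodes were not alike in other genes. PCB126 L1 held 110 UMIs of the interferon-gamma-induced chemokine gene Cxcl9 and 56 of Gbp2, an interferon-induced GTPase, and PCB126 L5 held 47 of Cxcl9 and 6 of Gbp2. PCB126 L4 held 14 UMIs of Cd209a and 10 of Clec10a, lectins found on type 2 dendritic cells, and PCB126 L2 held 52 of Irf8, a transcription factor of monocytes and dendritic cells, and 1 of Lyz2. PCB126 L3 had 598 UMIs of Lyz2, 31 of Ccr2, 38 of Ly6c2 and 29 of the complement genes C1qa, C1qb and C1qc. PCB126 L3, L4, L7 and L8 had more than 10 UMIs of both Ccr2 and Lyz2, and PCB126 L8 also had 27 of Chil3.

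PCB126 L9 was led by genes of cytotoxic lymphocytes, with 58 UMIs of Ccl5, 44 of Gzma (granzyme A), 8 of Klre1 and 6 of Prf1 (perforin) in 4416 UMIs. It had 16 UMIs of Ly6c2, 0 of Lyz2 and 0 of Ccr2. The limit of 0 on Cd3e did not remove it.

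PCB126 R1 to R5 had complement C1q transcripts, which mark tissue macrophages, at 113, 53, 57, 52 and 27 UMIs. The 34 Control members had 0 C1q UMIs in all. Gpnmb, a glycoprotein of lipid-laden macrophages, had 98, 0, 32, 18 and 1 UMIs in R1 to R5, and PCB126 R1 also held 79 UMIs of Pf4 and 20 of Trem2. They had 4 to 28 UMIs of Ccr2 and 172 to 430 MHC class II UMIs per 10000. PCB126 R6 (3101 UMIs) differed, with 141 UMIs of the neutrophil-attracting chemokine gene Cxcl2, 24 of Hcar2, 16 of Il1r2 and 15 of Mmp9, the last 2 being genes of mature neutrophils, and 0 of Lyz2, Ccr2 and C1q.

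Cycling genes were high in most G barcodes and in a few Control L barcodes. Summed over 48 genes of the G2 and M phases, PCB126 G1 had 117 UMIs per 10000, and over 32 S-phase genes it had 16.7. The Control G barcodes had 20.7 to 132 UMIs per 10000 of G2/M genes and 11.6 to 69.7 of S-phase genes. Control G3, G4 and G6 had the highest S-phase values, at 61.3, 52.4 and 69.7, and Control G1, G2 and G7 had the highest G2/M values, at 112, 132 and 106. Control G3 to G6, described above as combining Prtn3 with some monocyte genes, thus had the highest S-phase values, except for G5 at 19.0.

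Among Control L barcodes, 18 of 21 had 6.03 to 23.3 G2/M UMIs per 10000, and Control L1, L14 and L4 stood above them at 186, 150 and 74.6. Mki67, the proliferation marker Ki-67, had 24, 11 and 4 UMIs in these 3. Control L1 and L14 had 5 and 4 UMIs of Prtn3 and 0 of Vcan and Chil3, beside 138 and 117 of Lyz2. A granule limit of 3 UMIs would class both as G. Control L4 had 2 UMIs of Prtn3, 3 of Vcan and 40 of Chil3. PCB126 L barcodes had 4.94 to 22.6 G2/M UMIs per 10000, all under the 3 high Control L values. PCB126 R6, the barcode with genes of mature neutrophils, had 38.7 from 12 UMIs, with 0 UMIs of Mki67, Top2a and the S-phase genes. In S-phase genes PCB126 L2 and L1 were the highest of their library's L barcodes at 24.7 and 15.8, and Control L1 and L14 of theirs at 22.1 and 21.3.

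**Figure D3:**
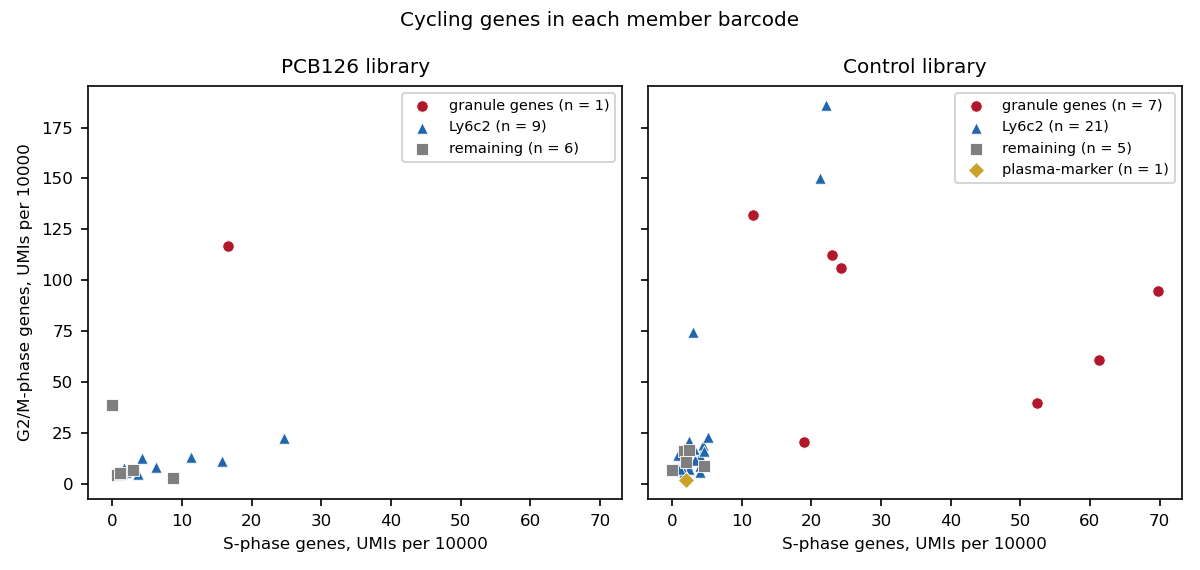
Each point is 1 member barcode, with UMIs per 10000 of 32 S-phase genes on the x axis and of 48 G2/M-phase genes on the y axis, for the PCB126 library (left) and the Control library (right). PCB126 G1 and 6 of the 7 Control granule barcodes lie above 30 on the y axis, and Control G5 lies at 20.7. PCB126 R6, a remaining barcode, lies at 38.7, and 3 Control Ly6c2 barcodes have high G2/M values.

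Over the sums of the Control library the G2/M genes stood at 9133 CPM (8746 to 9534) in G and 3437 CPM (3200 to 3687) in L, a ratio of 2.66 (2.45 to 2.89). The S-phase genes stood at 3233 CPM (3004 to 3474) in G and 490 CPM (403 to 590) in L, a ratio of 6.60 (5.40 to 8.13). In the PCB126 library the G2/M genes stood at 11693 CPM in the single G barcode and 1140 CPM in L. After thinning to 1000 UMIs, 7 of 7 Control G barcodes and 16 of 21 Control L barcodes had a G2/M UMI, with a mean of 8.71 and 2.67 such UMIs, against 48.7% and 0.984 in Control endothelial-gene barcodes. In the PCB126 library 6 of 9 L barcodes had one, with a mean of 1.00, against 57.9% and 0.906 in PCB126 endothelial-gene barcodes, whose median depth was 6109 UMIs against 12311. Levels in PCB126 L barcodes were thus close to those in endothelial-gene barcodes. Control barcodes chosen for S100a8 and S100a9 had a G2/M UMI after thinning in 79.5%, with a mean of 2.09, near Control L. Such PCB126 barcodes had one in 81.2%, with a mean of 2.48, above PCB126 L. Mki67 was seen after thinning in 2.23% of these Control barcodes and in 14.3% of Control L barcodes. Of the 779 G2/M UMIs in Control L barcodes, Control L1, L14 and L4 held 295, 148 and 98. Whether the excess of Control L over endothelial-gene barcodes in the G2/M list marks cycling was not tested.

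The comparison of G with L in the Control library covered 1296 genes with at least 50 UMIs over both sums. A gene was called where the ratio of CPM was at least 2 either way, and 517 genes (39.9%) were, 248 higher in G (19.1%) and 269 lower (20.8%). The median log2 ratio over all 1296 was 0.13. Control G1 holds 71488 of the 228614 G UMIs: without it 123 of 1034 genes were higher, 111 of them among the 248.

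Among genes outside the rule, Ctsg was named first on the G side, with 287 UMIs in 7 of 7 G barcodes and 2 UMIs in 2 of 21 L barcodes (ratio 142, 39.0 to 1180). Cdk6 had 116 and 3 UMIs (ratio 38.3, 12.8 to 189), Myb 69 and 1 (ratio 68.4, 11.9 to 2741), and Ifitm1, an interferon-induced membrane protein, 292 and 27 (ratio 10.7, 7.22 to 16.5). Igfbp4, an insulin-like growth factor binding protein, had 57 UMIs in G and 0 in L, at least 18.8-fold higher. The other 10 named on this side were Kcnq1ot1, Dut, Rcc2, Fabp5, Mcm7, Ran, Snrpd1, Stmn1, Eef1g and Ybx3, with ratios between 5.09 and 21.2. Several serve DNA replication or cell division, among them Dut, Mcm7 and Stmn1.

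The lists differed in direction. Of 10 primary granule genes 6 were tested, 3 of them genes of the rule, and 4 were higher in G and 2 lower. Of the G2/M list 16 of 48 genes were tested, 11 were higher in G and 0 lower, with a median log2 ratio of 1.73 beside 0.13 over all genes. Top2a had a ratio of 3.84 (2.57 to 5.90) and Ube2c one of 12.7 (5.16 to 40.4). The 3 S-phase genes tested were all higher: Dut, Mcm7 and Nasp, the last with a ratio of 7.60 (3.24 to 21.8). Of 12 translation and nucleolar genes 10 were tested and 8 were higher, among them the nucleolar genes Ncl (ratio 4.47, 3.54 to 5.69) and Npm1 (ratio 4.01, 3.27 to 4.94).

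Classical monocyte genes ran the other way. Of 20 tested, which include F13a1, Vcan, Chil3 and Ly6c2 of the rule, 15 were lower in G and 0 higher (median log2 ratio -1.86). Without those 4, 13 of 16 were lower and 0 higher. Lyz2 had 484 UMIs in G and 4316 in L (ratio 0.111, 0.101 to 0.122), Fn1 had 47 and 524 (ratio 0.0889, 0.0645 to 0.120), and Ccr2 had 118 and 325 (ratio 0.360, 0.289 to 0.446). Plac8, found in both progenitors and monocytes, was within 2-fold (ratio 1.30, 1.15 to 1.47).

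Most tested transcription factors of the lineage were also lower in G. Of 11 tested, 7 were lower in G and only Irf8 was higher (ratio 3.25, 2.22 to 4.86). Irf8 was uneven among the G barcodes, with 51 UMIs in Control G3 and 0 in Control G7. Klf4, needed for monocyte formation, had a ratio of 0.181 (0.130 to 0.247), Spi1 0.347 (0.256 to 0.466) and Cebpb 0.117 (0.0743 to 0.178).

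Genes of the inflammatory response and of pathogen sensing were lower in G. All 6 tested cytokine and NF-kB genes were lower, with Il1b at 0 UMIs in G and 214 in L (at least 72.0-fold lower) and Cxcl2 at 5 and 202. All 6 tested pattern recognition genes were lower, with Cd14, the lipopolysaccharide co-receptor, at 0 and 72 (at least 24.2-fold lower) and the lectin receptor Clec4e at 2 and 93. All 7 tested chemokine and growth factor receptors were lower, and 4 of 6 NADPH oxidase genes were, with the catalytic subunit Cybb at a ratio of 0.150 (0.112 to 0.199). Of 12 immediate early genes, 11 were lower, with Fos at 46 and 617 UMIs. Saa3, an acute-phase protein, led the lower side with 1 UMI in G and 684 in 16 of 21 L barcodes, followed by Il1b, Apoe, Pla2g7 and Dusp1.

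**Figure D4:**
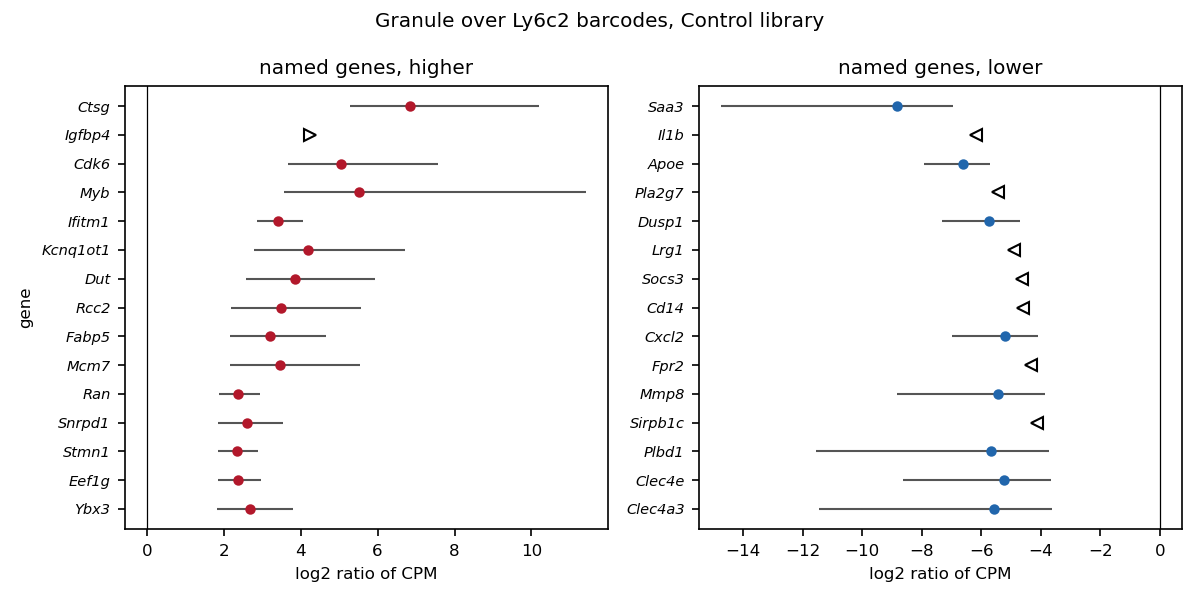
Log2 ratio of CPM in Control granule barcodes (n = 7) over Control Ly6c2 barcodes (n = 21) for the genes named on each side, with lines for exact 95% counting intervals and open triangles for bounds where the lower sum was 0. Ctsg heads the higher side and Saa3 the lower side.

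The libraries were compared over the sums of all members. Of 2139 genes with at least 50 UMIs, 308 (14.4%) were called, 89 higher in PCB126 members (4.16%) and 219 lower (10.2%), with a median log2 ratio of -0.08. The comparison sets 1 granule, 9 Ly6c2 and 6 remaining barcodes against 7, 21, 5 and 1 plasma-marker barcode, so differences in mixture and in level cannot be told apart. Without the G barcodes of both libraries 98 of 1237 genes were higher, 60 of them among the 89, and 213 were lower, 149 of them among the 219.

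MHC class II genes led the higher side. H2-Eb1 had 1045 UMIs in 13 of 16 PCB126 members and 3 UMIs in 3 of 34 Control members (ratio 723, 247 to 3510), and all 6 tested genes of the list of 7 were higher. Cd74, the invariant chain, had 2363 and 61 UMIs (ratio 80.4, 62.3 to 105), and H2-DMb1, which helps to load peptides, had 114 and 28 (ratio 8.45, 5.55 to 13.3). The summed list stood at 25828 CPM in PCB126 members and 359 CPM in Control members.

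Outside the members, MHC class II transcripts differed between the libraries in some sets and measures and not in others. Barcodes with at least 3 UMIs of the nonclassical genes held 46654 CPM in the PCB126 library (7 barcodes) and 2363 CPM in the Control library (417 barcodes). A UMI of the list was seen in 7 of 7 of them in the PCB126 library and in 42.7% in the Control library, with a mean of 44.1 and 1.44 such UMIs after thinning to 1000. In endothelial-gene barcodes the list stood at 741 CPM in the PCB126 library and 786 CPM in the Control library. It was seen in 180 of 651 PCB126 (27.6%) and 37 of 308 Control endothelial-gene barcodes, and H2-Aa in 10.4% and 1.30%.

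MHC class I genes were also higher in PCB126 members. Of 10 tested, 9 were higher, with a median log2 ratio of 1.66, and H2-D1 was just within 2-fold (ratio 1.87, 1.63 to 2.14). B2m, their shared light chain, had 692 and 596 UMIs (ratio 2.41, 2.16 to 2.69), and H2-K1 had 369 and 235 (ratio 3.26, 2.76 to 3.85). In endothelial-gene barcodes B2m stood at 2543 CPM in the PCB126 library and 1845 CPM in the Control library, and H2-K1 at 1869 and 1090 CPM.

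C1qb had 200 UMIs in 7 of 16 PCB126 members and 0 in Control members, at least 138-fold higher, with C1qa and C1qc likewise at 0 in Control. Ly6a had 304 UMIs in PCB126 members and 7 in Control members, and Ly6i had 88 in PCB126 members and 6 in Control members; both are relatives of Ly6c2. The other genes named on this side were H2-Aa, H2-Ab1, H2-Q7, Rgs1, Bcl2a1b and AW112010.

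On the lower side, 10 of 21 tested classical monocyte genes were lower in PCB126 members and 1 was higher (median log2 ratio -0.83), 4 of the 21 being genes of the rule. Without those 4, 7 of 17 were lower and 1 was higher, with a median log2 ratio of -0.49. Lyz2 had 1278 UMIs in PCB126 members and 5722 in Control members (ratio 0.463, 0.436 to 0.492), while Ccr2 was within 2-fold at 180 and 526 (ratio 0.710, 0.596 to 0.842), as was Csf1r, the receptor for the main monocyte growth factor (ratio 1.11, 0.839 to 1.47). The granule proteases rested on PCB126 G1: Elane had 447 and 143 UMIs (ratio 6.49, 5.36 to 7.88) and Ctsg 144 and 289 (ratio 1.03, 0.840 to 1.27). Immediate early genes were lower for 8 of 13 tested, with Nr4a1, a factor needed by nonclassical monocytes, at 6 and 210 UMIs (ratio 0.0593, 0.0215 to 0.131), and none was higher.

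Several of the lower genes also differed in other cells of the 2 libraries. Hbb-bs had 2 UMIs in PCB126 members and 679 in Control members, and in endothelial-gene barcodes it was seen in 18.7% of PCB126 and 92.2% of Control barcodes. Hp, encoding haptoglobin, had 20 and 618 UMIs in members, and was seen in 2.30% of PCB126 and 39.0% of Control endothelial-gene barcodes. Lcn2 had 0 and 85 UMIs in members, and was seen in 2.46% and 12.7% of those barcodes. The part of RNA outside the cells in these differences was not tested. Saa3, with 1 UMI in PCB126 members and 772 in 20 of 34 Control members, was the gene named first on this side.

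**Figure D5:**
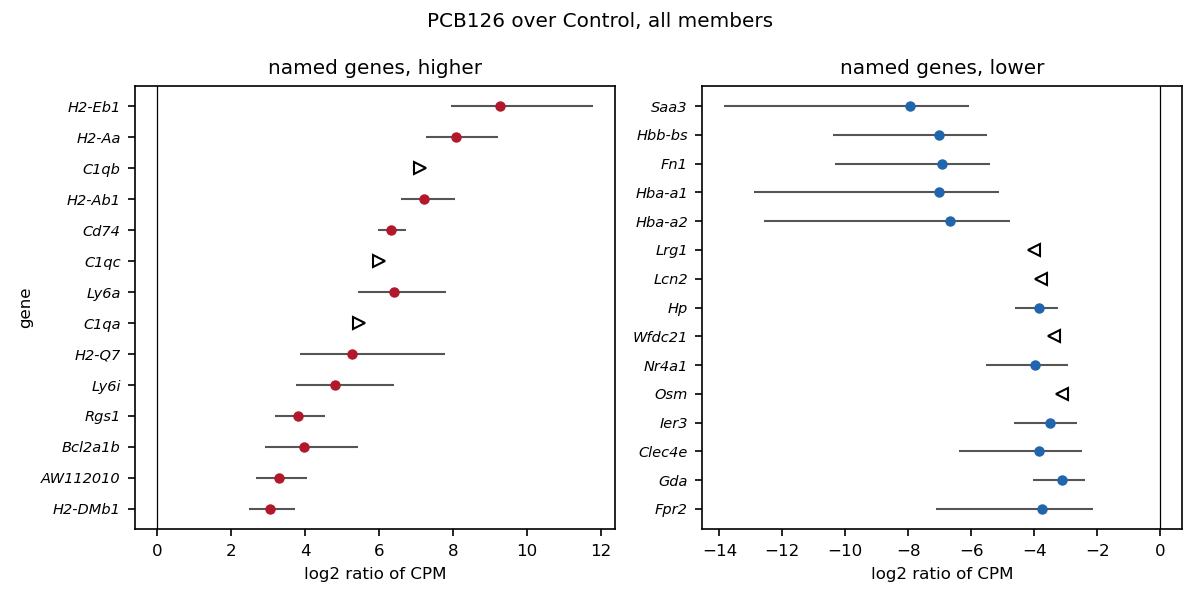
Log2 ratio of CPM in all PCB126 members (n = 16) over all Control members (n = 34) for the genes named on each side, with lines for exact 95% counting intervals and open triangles for bounds where the lower sum was 0. MHC class II and C1q genes lie on the higher side, and Saa3, globins and Fn1 on the lower side.

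Target genes of AHR were near the detection limit in the members. Cyp1a1, the classical target, had 3 UMIs in PCB126 members and 0 in Control members, and Ahrr, the AHR repressor, had 7 and 0. Tiparp, also induced through AHR, had 16 and 40 UMIs (ratio 0.830, 0.434 to 1.52) and was the only one of the 8 listed targets with the 50 UMIs needed for a ratio. PCB126 R6 held 12 of the 16, which left 4 UMIs in the other 15 PCB126 members. Nqo1 had 0 in both, and Ahr itself had 3 and 21, too few for a ratio.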

How the data were processed

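Droplet 3′ RNA libraries of 1 PCB126 and 1 Control mouse liver were analysed from the deposited matrices of UMI counts, whole numbers that the authors had not normalized. The deposited gene and barcode lists hold other content, identifiers in matrix order. The matrix header, per the file headers, gives Cell Ranger 6.0.0 as the program. Cell Ranger 6.1.1 and Seurat 4.0.1 are listed per the submitters' processing notes. Build and annotation: not given in the sources used here.

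The PCB126 library held 4307 barcodes and 16269562 UMIs, of which 1149 barcodes and 10036099 UMIs were kept. The Control library held 8550 barcodes and 24134912 UMIs, of which 1886 barcodes and 13967347 UMIs were kept. The members, lists and limits were chosen with earlier results of these data known.

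UMIs were summed per set and given as CPM, with exact Poisson intervals for levels, Clopper-Pearson intervals for shares and conditional binomial intervals for ratios (numpy 2.4.6, scipy 1.17.1). Intervals cover counting error only. Log2 ratios carried 0.5 added to each count. Beyond list genes, the 15 genes per direction were named whose interval bound nearest to 1 lay farthest from it, among genes with at least 50 UMIs, seen in at least 10% of barcodes of the higher side and with no barcode over 50% of them. Mitochondrial, ribosomal protein, Gm42418, AY036118, Lars2 and rule genes were left out. Some genes are not reported here. Endothelial-gene barcodes had at least 5 UMIs of endothelial genes. Doublets were scored with Scrublet in scanpy 1.11.5, and shares were also thinned to 1000 UMIs per barcode. The ratio and call steps were tested on simulated counts. Promoter windows are RefSeq's, on GRCm38.p6. The alternatives covered the limits, filters, totals, thinning and weighting. Those without the deepest granule barcode, without the granule barcodes, and without 3 barcodes led by genes of other classes were chosen after seeing the data.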

Additional observations from a re-analysis of the deposited data

How the results depend on the processing

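The PCB126 member share of 1.39% was 2.35% with a marker sum of at least 5, 0.677% with up to 50% mitochondrial UMIs and 0.609% with Ly6c2 left out of the sum. The marker sum of at least 5 added 11 PCB126 and 3 Control barcodes, which put the PCB126 share above the Control share. Leaving out Ly6c2 also gave a share ratio of 0.359 and put 14.3% of PCB126 members in the Ly6c2 class, against 56.2% as reported. The share ratio was 0.402 with up to 50% mitochondrial UMIs, and a granule limit of 3 UMIs put 32.4% of Control members in the granule class, against 20.6% as reported.

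For granule over Ly6c2 barcodes in the Control library, 248 genes were higher and 269 lower. A minimum of 20 UMIs gave 734 and 593, no minimum gave 3745 and 2638, thinning to 1000 UMIs gave 8 and 12 of 96 genes tested, and leaving out the deepest granule barcode, an alternative chosen after seeing the data, gave 123 higher. For PCB126 over Control members, 89 genes were higher and 219 lower. A minimum of 20 UMIs gave 343 and 572, no minimum gave 2348 and 3050, thinning gave 14 and 25 of 153 genes tested, and weighing each barcode equally gave 134 higher. After thinning, 3 of the 8 higher and 12 of the 12 lower genes for granule over Ly6c2 barcodes were among those reported. For PCB126 over Control members, 8 of the 14 higher and 9 of the 25 lower genes were. The filters change how many genes are tested, and for the other settings the cause was not tested. The G2/M ratio was 2.38 without the deepest granule barcode, and the S-phase ratio was 7.47.

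Over the results that answer a comparison, 85 values were labelled as the same and 20 as moved, and over single genes 531 and 39. No single-gene value reversed. The member share ratio, 0.772 as reported, passed above equal shares with a marker sum of at least 5. That setting added 11 PCB126 and 3 Control barcodes, and the counts of labels do not mark this change of direction. No paired analysis was possible because each treatment has 1 library, and leaving out replicates was not possible for the same reason.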

Other observations

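Barcodes that met the marker sum but fell to a later limit carried other gene sets. In the Control library 31 were left out on the nonclassical genes, with 0 in the PCB126 library. Summed over these 31, Chil3 stood at 2374 CPM and was found in 31 of 31, Lyz2 at 9451 CPM in 31, Ccr2 at 468 CPM in 15, Vcan at 360 CPM in 16 and Ly6c2 at 289 CPM in 13. They also held Nr4a1, a factor needed by nonclassical monocytes, at 1082 CPM in 30 of 31, Cx3cr1, the fractalkine receptor, at 459 CPM in 28 and Ace at 205 CPM in 24, while Mpo, Elane and Ctsg had 0 UMIs and Mki67 had 1.

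The limit on S100a8 and S100a9 left out 4 PCB126 barcodes and 41 Control barcodes that met the marker sum. Over the 4 PCB126 barcodes the secondary granule gene Camp had 2202 UMIs and Prtn3 had 1. Over the 41 Control barcodes Camp had 11062 UMIs, Prtn3 had 110 in 16 barcodes, Mpo had 6, and the G2/M genes stood at 7831 CPM.

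The limit on Cd79a and Cd3e left out 7 PCB126 barcodes and 12 Control barcodes. Ly6c2 was found in all of them, with 91 UMIs over the 7 PCB126 barcodes and 171 over the 12 Control barcodes, while Lyz2 had 0 and 1. Cd3e was found in 6 of the 7 PCB126 barcodes and 5 of the 12 Control barcodes, and Igkc in 1 and 9.

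In the Control library 4 further barcodes met the rule at 20 to 50% mitochondrial UMIs, with 12992 UMIs in all, 15 of Mpo, 5 of Prtn3 and 5 of Elane. In the PCB126 library the 11 barcodes with a marker sum of 5 to 7 held Ly6c2 in 11, Ccr2 in 9 at 855 CPM and Cd74 in 9 at 13789 CPM, and F13a1 in none.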
